A study of Homo sapiens with 2 samples.

Results

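The ZNF genes of the human autosomes other than chromosome 19 were followed through H1299 cells grown without and with metformin. H1299 is an established human non-small cell lung cancer line, and metformin is a biguanide drug used against type 2 diabetes. RNA was sequenced from untreated cells (control) and from cells given 5 mM metformin, with 1 library of each, so no difference below has a replicate check and no test across libraries was possible. The labels used here do not state how long the drug was present. A gene was included when its symbol began with ZNF and a digit, it lay on chromosomes 1 to 22 except 19, it was no read-through model, and it had a TPM (an abundance corrected for transcript length and library size) of 1 or more in at least 1 library. The members were thus chosen by the higher of their TPM values in the control and metformin libraries. That minimum did not use the difference between the libraries, but the members were chosen with earlier results of these data known. Of 296 such genes listed, 238 met that minimum, out of 14078 genes at that level in all. They comprised 220 protein-coding genes, 9 pseudogenes and 9 antisense or divergent RNAs.

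Most proteins named ZNF carry C2H2 zinc fingers, small folds held by a zinc ion in which a few residues read a few bases of DNA. Fingers follow each other in arrays joined by a conserved linker, and the array as a whole sets the DNA sequence a protein can bind. Many carry a KRAB domain at the front, which recruits the scaffold TRIM28 and through it the histone methyltransferase SETDB1 and heterochromatin proteins, and many KRAB zinc finger proteins silence transposable elements. Others carry a SCAN domain, which pairs such proteins with each other, or no such domain. New copies arose by local duplication, which left many of these genes in clusters.

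Most of the members were measured at low to moderate levels. The mean of the libraries was under 10 TPM for 110 members, 10 to 30 TPM for 98 and 30 TPM or more for 30. The minimum was met in both libraries by 236 members, while ZNF22-AS1 met it in control alone (1.15 TPM, against 0.910 with metformin) and ZNF862 with metformin alone (1.04 TPM, against 0.803). Just inside the minimum lay ZNF815P as well, at 1.09 TPM in control and 1.18 with metformin. Just outside lay ZNF469 (0.399 and 0.889 TPM), ZNF853 (0.687 and 0.872 TPM) and ZNF252P-AS1 (0.804 and 0.850 TPM). Of the 58 listed genes below the minimum, 36 were listed at 0 in both libraries.

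The libraries held an estimated 28.7 M read pairs for control and 31.7 M for metformin. Epithelial keratins were abundant under the carcinoma label, with KRT18 at 553 TPM in control and 954 with metformin, and KRT8 at 269 and 521 TPM. The leukocyte gene PTPRC was listed at 0 and 0.0266 TPM, and the T cell gene CD3E and the endothelial gene PECAM1 at 0 in both. In RNA from a whole culture, fewer cells making a transcript and less of it in each cell cannot be told apart.

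Below, the members are ordered along their chromosomes into clusters, in which neighbouring ZNF genes lay at most 500 kb apart. There were 19 clusters with 3 or more measured members, holding 103 members, and 126 members were scattered. Single fingers from 2 clusters among the 3 of lowest median difference and from 2 among the 3 of highest show how far their coding DNA can differ in base composition. Each line gives 1 finger with the linker after it, 78 bases of reference sequence (GRCh37, coding strand, 5′ to 3′), with the linker codons in capitals. The first 4 genes come from low clusters on chromosomes 7 and 4, and the other 4 from clusters nearer to no difference on chromosomes 7 and 16. The cluster of lowest median, on chromosome 9, has no finger shown, and its gene ZNF367 has coding DNA of 63.1% G and C.
ZNF107: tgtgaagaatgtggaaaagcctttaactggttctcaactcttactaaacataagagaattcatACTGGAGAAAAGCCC
ZNF92: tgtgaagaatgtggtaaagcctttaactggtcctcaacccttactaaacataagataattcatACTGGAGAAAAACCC
ZNF680: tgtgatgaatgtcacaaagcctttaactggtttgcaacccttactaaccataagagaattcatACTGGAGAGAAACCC
ZNF732: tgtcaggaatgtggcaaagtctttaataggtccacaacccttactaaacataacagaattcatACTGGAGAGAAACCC
ZNF467: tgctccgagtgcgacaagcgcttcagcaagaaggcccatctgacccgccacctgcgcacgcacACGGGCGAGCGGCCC
ZNF777: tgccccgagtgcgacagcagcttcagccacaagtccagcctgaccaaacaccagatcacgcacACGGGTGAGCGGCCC
ZNF746: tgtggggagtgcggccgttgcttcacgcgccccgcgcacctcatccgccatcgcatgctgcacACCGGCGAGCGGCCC
ZNF768: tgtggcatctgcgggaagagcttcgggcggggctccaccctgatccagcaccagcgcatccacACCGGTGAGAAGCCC
All 8 stretches lie within 1 coding exon, the last of the transcript, at chr7:64167082-64167159 on the plus strand for ZNF107 and chr7:64863634-64863711 on the plus strand for ZNF92. ZNF680 was read at chr7:63982169-63982246, ZNF732 at chr4:265647-265724, ZNF467 at chr7:149462862-149462939, ZNF777 at chr7:149129374-149129451, ZNF746 at chr7:149171799-149171876 and ZNF768 at chr16:30536597-30536674, these 6 on the minus strand. The G and C content was 37.2% in the ZNF107 and ZNF92 fingers and 39.7% in those of ZNF680 and ZNF732. It was 64.1% in ZNF777, 66.7% in ZNF768, 69.2% in ZNF467 and 73.1% in ZNF746. The ZNF107 and ZNF92 fingers shared 73 of 78 bases (93.6%), whereas ZNF107 and ZNF467 shared 38 (48.7%). In the members' translated proteins 707 linkers reading threonine, glycine, glutamate, lysine and proline were counted. The most common DNA for this form, actggagagaaaccc, stood in 103 of them (14.6%). The linkers printed for ZNF467, ZNF777 and ZNF746 have arginine in place of lysine and are not in that count.

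The 250 bases before the RefSeq start are given here for 3 genes of the low cluster on chromosome 7 and 2 of the chromosome 7 cluster near no difference (RefSeq, GRCh38.p14), with each CG dinucleotide in capitals.
ZNF107: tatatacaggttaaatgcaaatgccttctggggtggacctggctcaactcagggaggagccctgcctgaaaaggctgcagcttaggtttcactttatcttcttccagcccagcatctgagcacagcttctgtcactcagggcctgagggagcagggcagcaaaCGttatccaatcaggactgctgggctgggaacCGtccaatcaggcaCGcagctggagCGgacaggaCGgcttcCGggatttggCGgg
ZNF92: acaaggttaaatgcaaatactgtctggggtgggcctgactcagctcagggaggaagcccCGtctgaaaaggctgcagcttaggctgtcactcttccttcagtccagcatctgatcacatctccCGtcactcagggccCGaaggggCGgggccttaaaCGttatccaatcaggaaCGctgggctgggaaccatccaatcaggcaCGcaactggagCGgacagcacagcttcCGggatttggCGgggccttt
ZNF680: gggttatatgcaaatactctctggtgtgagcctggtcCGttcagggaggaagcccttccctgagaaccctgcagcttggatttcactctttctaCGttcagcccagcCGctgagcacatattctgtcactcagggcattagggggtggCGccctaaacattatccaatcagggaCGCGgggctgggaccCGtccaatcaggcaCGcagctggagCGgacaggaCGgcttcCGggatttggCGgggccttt
ZNF467: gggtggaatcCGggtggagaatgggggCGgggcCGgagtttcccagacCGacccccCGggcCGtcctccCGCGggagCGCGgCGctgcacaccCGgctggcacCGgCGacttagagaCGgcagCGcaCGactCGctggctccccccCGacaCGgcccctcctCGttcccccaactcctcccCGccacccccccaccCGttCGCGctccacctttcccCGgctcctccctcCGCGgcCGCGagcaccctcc
ZNF786: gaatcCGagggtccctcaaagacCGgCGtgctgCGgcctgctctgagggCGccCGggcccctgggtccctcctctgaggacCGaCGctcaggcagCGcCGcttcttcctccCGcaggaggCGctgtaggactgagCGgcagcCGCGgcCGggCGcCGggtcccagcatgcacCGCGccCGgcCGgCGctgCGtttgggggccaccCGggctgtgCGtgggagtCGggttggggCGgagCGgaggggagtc
These windows lie at chr7:64665883-64666132 for ZNF107 and chr7:65373605-65373854 for ZNF92, both on the plus strand. On the minus strand they lie at chr7:64563072-64563321 for ZNF680, chr7:149773589-149773838 for ZNF467 and chr7:149090719-149090968 for ZNF786. The ZNF107 window held 7 CG dinucleotides, that of ZNF92 held 10 and that of ZNF680 held 12. The ZNF467 and ZNF786 windows held 30 and 29. This contrast did not run through all clusters: the median was 20 in the ZNF48 to ZNF267 cluster on chromosome 16, and 23 and 25 in the lower-lying ZNF354A to ZNF354C and ZNF605 to ZNF268 clusters. Nor did it hold for each gene of the 2 chromosome 7 clusters. ZNF786 itself stood at 0.732 of control, and in the low cluster ZNF736 and ZNF727, at 0.984 and 0.896, held 6 each. Over the 193 members with a window, the Spearman correlation of the metformin difference with its G and C content was 0.168. Of the members, 193 had such a window, with a median of 19 CG dinucleotides and 63.6% G and C, against 11 and 58.0% over 27305 windows of all genes. On either strand, the letters TATAAA stood in 4.15% of the members' windows and 11.1% of all windows, CCAAT in 45.6% and 33%, and GGGCGG in 61.1% and 42.3%. The windows of all genes had no minimum of TPM, unlike those of the members, and the part of that minimum in these contrasts was not tested. A match of letters is a description of the sequence and not a bound site.

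The members as a whole were lower with metformin than most measured genes, by a small amount each. Their summed abundance was 4211 TPM in control and 3651 TPM with metformin, a ratio of 0.867. For each gene the control value of log2(TPM + 1) was subtracted from the metformin value, and the median of this difference was -0.17 over the 238 members (95% order-statistic interval over members -0.20 to -0.13), with an SD between members of 0.27 and a range from -1.02 to 0.60. Over all 14078 measured genes the median was -0.08 with an SD of 0.42. A difference below 0 was found for 188 members, which is 79.0% (exact Clopper-Pearson 95% interval 73.3 to 84.0%), where 59.7% of all measured genes were below 0. Genes are not independent replicates, so these intervals describe the members and not the treatment.

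Large differences were few. On the log2(TPM + 1) scale 2 members, ZNF107 and ZNF232-AS1, were lower by 2-fold or more, and 1.24% of all measured genes were. No member was higher by 2-fold, where 1.51% of all genes were. By 1.5-fold or more, 18 members (7.56%) were lower, close to the 7.03% of all genes, and 1 member, ZNF385A, was higher, against 5.40% of all genes. Scaling moved that split: with the libraries centred on genes at 10 TPM or more the counts were 12 lower and 3 higher, and with a trimmed mean 13 and 3. Both scalings brought the median of all genes from -0.08 to 0.01 and 0.00 and that of the members to -0.086 and -0.10. A scaling moves all genes nearly alike, so it says nothing about the gap between members and all genes. The exact 95% interval of the plain TPM ratio rests on estimated read pairs and covers counting error only. It lay below 1 for 118 of 236 members with a known transcript length, where it did for 42.5% of 13174 measured genes. It lay above 1 for 13 members, where it did for 24.3% of genes, and it included 1 for 105.

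**Figure D1:**
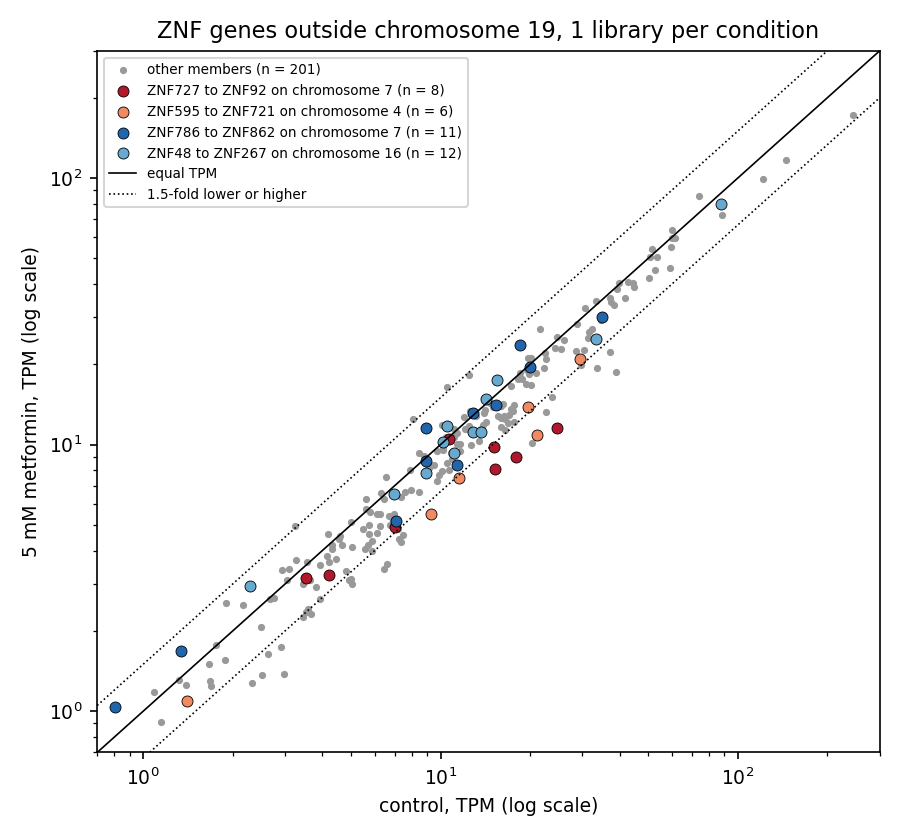
TPM in control (x axis) against TPM with 5 mM metformin (y axis), both on log scales, for the 238 members, with 4 clusters in colour, a solid line at equal TPM and dotted lines at 1.5-fold. Most points lie just under the solid line, and the ZNF727 to ZNF92 cluster on chromosome 7 (8 genes, dark red) reaches the lower dotted line and beyond.

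The ZNF727 to ZNF92 cluster near the centromere of chromosome 7 (chr7:63459184-64866048 on hg19, 1.41 Mb) held 8 members, all lower with metformin. Its summed abundance was 98.3 TPM in control and 60.1 TPM with metformin, and its median difference was -0.52. ZNF107, a protein with 16 finger motifs, had 24.5 TPM in control and 11.6 TPM with metformin, a ratio of 0.471 (counting interval 0.434 to 0.511). ZNF92, a KRAB protein, was at 17.9 and 9.01 TPM (ratio 0.503, 0.443 to 0.570). ZNF680, also with KRAB letters, was at 15.3 and 8.06 TPM (ratio 0.528, 0.459 to 0.605). These 3 were picked as the most shifted genes of the cluster, so their similar shares of control follow in part from that choice. The likeness of ZNF107 and ZNF92 above is of 1 printed finger each, and whether it goes with the shift was not tested. ZNF138 (15.1 and 9.75 TPM), ZNF117 (7.04 and 4.88 TPM) and ZNF273 (4.21 and 3.25 TPM) lay between. ZNF117 overlaps ERV3-1, an endogenous retrovirus envelope gene, on the same strand, and reads of the overlap could count for either. At the proximal end ZNF736 (10.6 and 10.5 TPM) and ZNF727 (3.52 and 3.16 TPM) had counting intervals that included 1, so the shift was uneven along the cluster.

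A cluster at the tip of the short arm of chromosome 4, ZNF595 to ZNF721 (chr4:53179-492960), had 6 members, likewise all lower, where 59.7% of all measured genes were. The sum was 92.6 TPM in control and 59.6 TPM with metformin, and the median difference was -0.52. ZNF732, a KRAB protein, had 21 TPM in control and 10.9 TPM with metformin (ratio 0.518, 0.453 to 0.592). ZNF141 was at 11.5 and 7.51 TPM (ratio 0.653), and ZNF721, whose span overlaps the pseudogene ABCA11P on the same strand, at 29.6 and 20.9 TPM (ratio 0.706). ZNF595 (19.7 and 13.8 TPM) and ZNF718 (9.31 and 5.47 TPM) overlap each other on 1 strand and can exchange reads. The pseudogene ZNF876P, at 1.41 and 1.09 TPM, had an interval that included 1.

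The lowest median, -0.65, belonged to the 3 genes from ZNF367 to ZNF782 on chromosome 9. ZNF367 was at 37.1 TPM in control and 22.3 TPM with metformin (ratio 0.602, 0.558 to 0.650). The KRAB genes ZNF782 (7.33 and 4.30 TPM) and ZNF510 (9.74 and 7.27 TPM) stood at 0.587 and 0.746 of control. With 3 genes that median rests on a single gene. On chromosome 6, ZNF184, a protein with 19 finger motifs, was at 33.6 and 19.4 TPM (ratio 0.576, 0.529 to 0.628). Its neighbour ZNF391 was at 13.4 and 10.3 TPM, and the pseudogene ZNF204P, on the opposite strand to ZNF391, at 5.61 and 6.22 TPM with an interval including 1. The median of these 3 was -0.35.

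In the ZNF354A to ZNF354C cluster on chromosome 5 all 5 genes encode proteins with KRAB letters. All 5 were lower, with a median of -0.34, where 59.7% of all measured genes were lower. ZNF354A was listed at 29.7 TPM in control and 19.9 TPM with metformin (ratio 0.671, 0.607 to 0.741), its paralog ZNF354B at 16.4 and 12.8 TPM, and ZNF354C at 13.9 and 11.8 TPM. ZNF879 was at 5.87 and 4.0 TPM, and ZNF454 at 4.44 and 3.71 TPM with an interval that included 1.

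The 7 genes of the ZNF605 to ZNF268 cluster at the end of chromosome 12 did not share 1 direction. ZNF891 was at 6.46 TPM in control and 3.40 TPM with metformin (ratio 0.527, 0.483 to 0.576). That interval is too narrow, because the transcript length behind it exceeds the gene's deposited span. ZNF140, 1 of 5 genes of this cluster with KRAB letters, was at 8.09 and 12.5 TPM (ratio 1.55, 1.31 to 1.83), the highest difference of any clustered member. It fell just short of the 1.5-fold count because that count uses TPM + 1. ZNF10, whose KRAB domain is the one fused to inactive Cas9 for gene silencing, was at 5.71 and 4.2 TPM (ratio 0.736). ZNF26 (16.9 and 12.1 TPM), ZNF268 (20.1 and 16.8 TPM), ZNF84 (22.2 and 19.3 TPM) and ZNF605 (12.7 and 10.0 TPM) were lower by less than 1.5-fold, and the cluster median was -0.32.

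Both directions were also seen in the small ZNF619 to ZNF621 cluster on chromosome 3, where the neighbours ZNF620 and ZNF619 differed. ZNF620 was at 6.6 TPM in control and 3.56 TPM with metformin (ratio 0.539, 0.440 to 0.658), whereas ZNF619 was at 3.08 and 3.42 TPM with an interval of 0.908 to 1.36. ZNF621 was at 22.7 and 20.9 TPM. In the ZNF205 to ZNF597 cluster on chromosome 16, a group rich in SCAN proteins (4 of 7), ZNF75A stood apart at 22.6 and 13.3 TPM (ratio 0.588, 0.525 to 0.658). The other 6 genes of that cluster had ratios from 0.813 for ZNF200 to 1.05 for ZNF213. In the ZNF695 to ZNF496 cluster on chromosome 1, ZNF124 was at 7.46 and 4.59 TPM (ratio 0.615, 0.504 to 0.748), while ZNF496, a SCAN protein, was at 33.3 and 34.5 TPM.

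The ZNF786 to ZNF862 cluster near the end of the long arm of chromosome 7 (chr7:148766733-149564568) had the median nearest to 0, -0.03. Its sum was 140 TPM in control and 137 TPM with metformin, and 6 of 11 members (54.5%) were below 0, against 59.7% of all measured genes. ZNF786 (7.06 and 5.17 TPM, ratio 0.732) and ZNF398 (11.4 and 8.37 TPM, ratio 0.736) were its lowest. ZNF282, known for binding a retroviral repressive element, was at 34.8 and 30.2 TPM. ZNF777 was at 20.01 and 19.6 TPM, and ZNF746, a repressor known as PARIS and a target of the ubiquitin ligase parkin, at 12.9 and 13.2 TPM. ZNF467 was at 18.5 and 23.5 TPM (ratio 1.27, 1.15 to 1.41), and its neighbour, the pseudogene ZNF767P, at 8.96 and 11.6 TPM (ratio 1.29, 1.09 to 1.53). These neighbours were the members of this cluster whose intervals lay above 1. A cluster on chromosome 16, ZNF48 to ZNF267 (chr16:30389633-31928629), had 12 members, 7 of them (58.3%) below 0, and a median of -0.10. Its most abundant member, ZNF768, was at 87.4 TPM in control and 79.9 TPM with metformin. ZNF689 was at 33.2 and 24.9 TPM (ratio 0.749, 0.693 to 0.809), and ZNF629 at 15.5 and 17.4 TPM (ratio 1.12, 1.04 to 1.22).

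**Figure D2:**
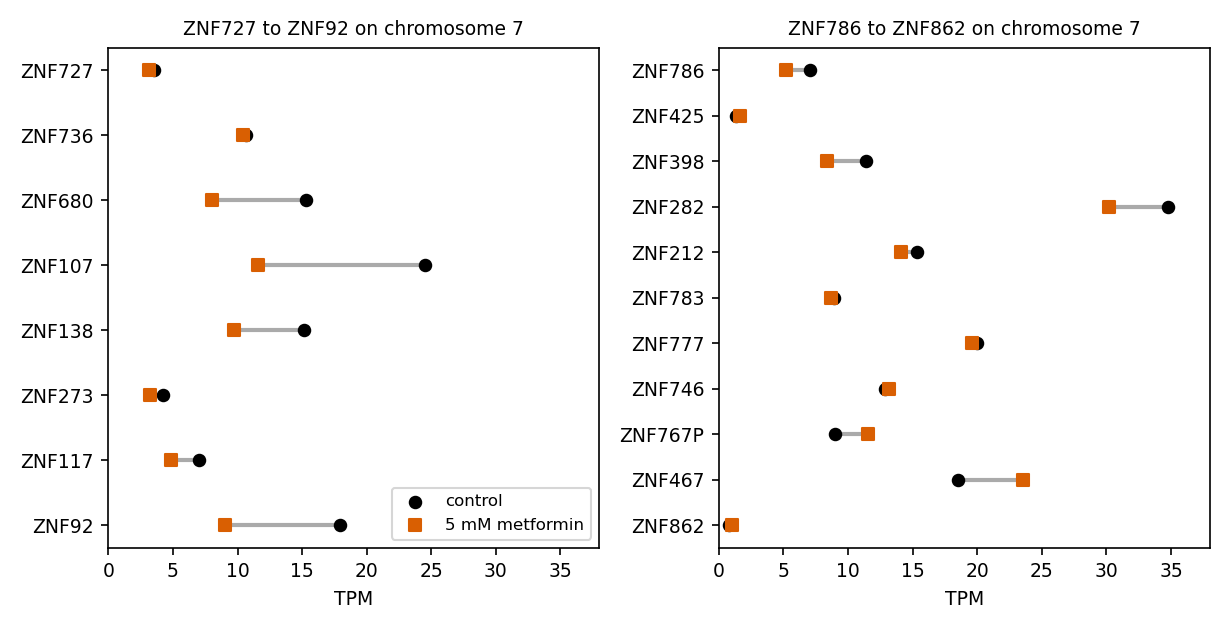
TPM (x axis, linear from 0) of each member of the ZNF727 to ZNF92 cluster (left) and the ZNF786 to ZNF862 cluster (right) on chromosome 7 in chromosomal order, with a black circle for control and an orange square for 5 mM metformin, 1 library each. On the left ZNF107, ZNF92 and ZNF680 show long gaps to the left, and on the right gaps run both ways.

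The remaining clusters lay between. Medians ran from -0.27 in ZNF248 to ZNF37A on chromosome 10 to -0.10 in ZNF445 to ZNF35 on chromosome 3. In the former, ZNF37A (16 and 11.7 TPM) and ZNF33A (10.7 and 8.05 TPM) were lower, and ZNF25 (4.67 and 4.19 TPM) had an interval including 1. In the latter, ZNF445, which is known to maintain genomic imprinting, was at 8.47 TPM in control and 9.30 TPM with metformin (ratio 1.10, 1.03 to 1.17), and ZNF197 at 10.9 and 8.82 TPM. The ZNF251 to ZNF252P cluster on chromosome 8 had all 7 members below 0, from ZNF517 (4.90 and 3.09 TPM, ratio 0.631) to ZNF250 (2.67 and 2.64 TPM), around a median of -0.19. The ZNF397 to ZNF396 cluster on chromosome 18 had all 4 below 0, and its most abundant member ZNF24 was at 50.1 and 42.2 TPM. All 19 cluster medians were below 0 and 18 were below the median of all genes, and in 8 clusters every measured member was below 0. Below 0 were 59.7% of all measured genes and 81.6% of the 103 clustered members. At such shares a cluster of few genes can lie wholly below 0, and members as near to 0 as ZNF250 were counted. With neighbours chained at 250 kb or at 1 Mb, the ZNF786 cluster kept the highest median of 16 and of 21 clusters, and the ZNF595 to ZNF721 cluster was the lowest or next to the lowest. At 250 kb the ZNF367 to ZNF782 cluster, lowest at 500 kb, no longer had 3 neighbouring members and was not formed.

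**Figure D3:**
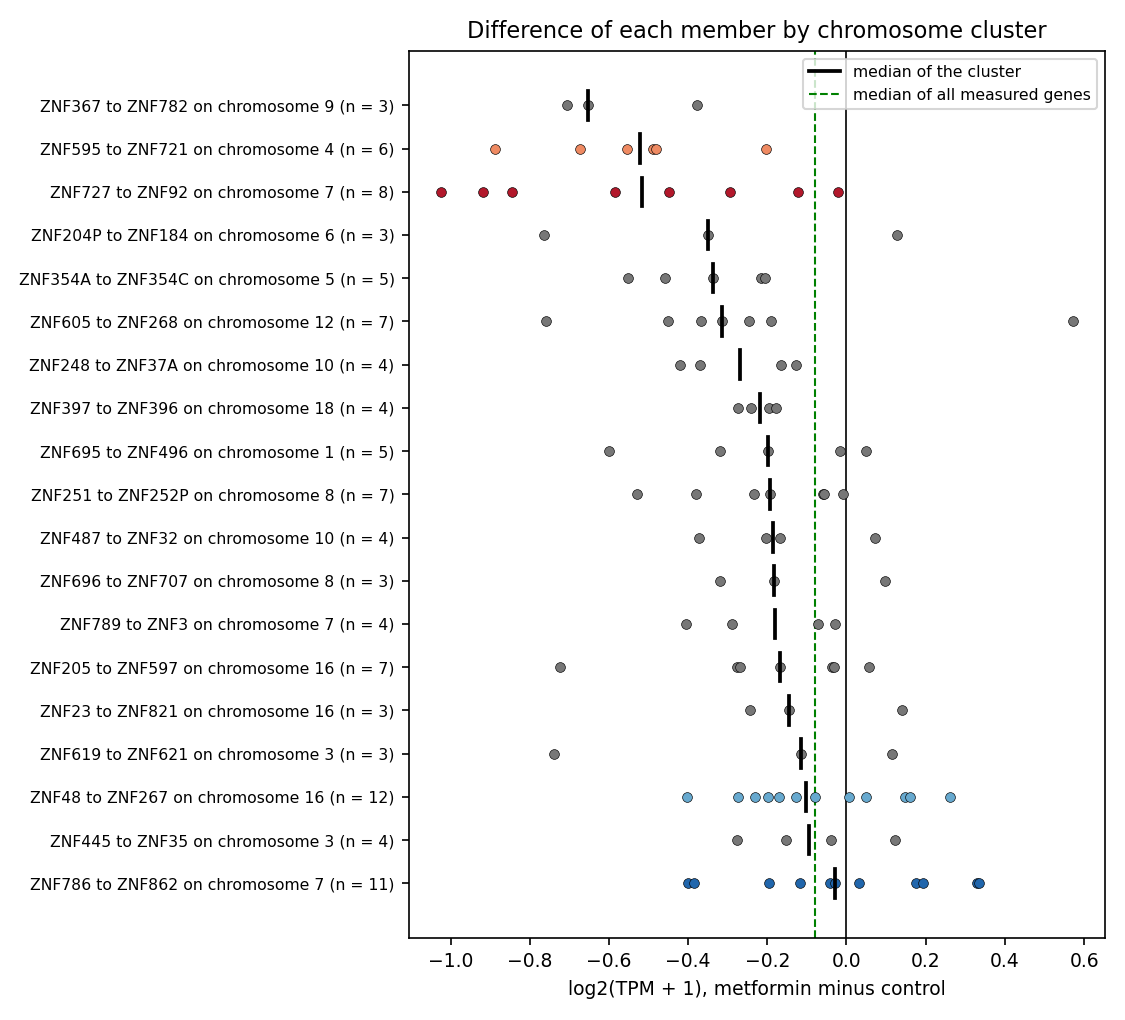
Metformin minus control difference in log2(TPM + 1) (x axis) for each member (points) of the 19 clusters, ordered by cluster median (black bar), with the median of all measured genes as a dashed line. The medians run from -0.65 to -0.03, and the range of single genes was narrower than this span in 10 clusters and wider in 9.

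Cluster values moved with base composition. The median G and C content of the canonical transcripts was 35.0% in the ZNF727 to ZNF92 cluster, 38.2% in ZNF595 to ZNF721, 57.3% in ZNF786 to ZNF862 and 59.5% in ZNF48 to ZNF267. Other clusters at the ends of the order lay between, with 41.9% in ZNF367 to ZNF782, the lowest, and 45.1% in ZNF445 to ZNF35, next to the highest. Over the 19 clusters, whose genes share the same pair of libraries, the Spearman correlation of median difference with median G and C content was 0.746. Over 236 single members it was 0.385 and over 13185 measured genes 0.349, and with the G and C content at the last position of codons it was 0.407 over 216 members. All genes were split by G and C content into 4 groups of equal size. In the lowest group (up to 41.8%) the median difference was -0.30 for 88 members and -0.24 for all genes. In the next (up to 48.4%) it was -0.15 for 57 members and -0.11 for all genes, and in the one after (up to 56.7%) -0.09 for 43 and -0.02. In the highest group it was -0.05 for 48 members and 0.06 for all genes, so the members' median was below that of all genes in each of the 4.

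**Figure D4:**
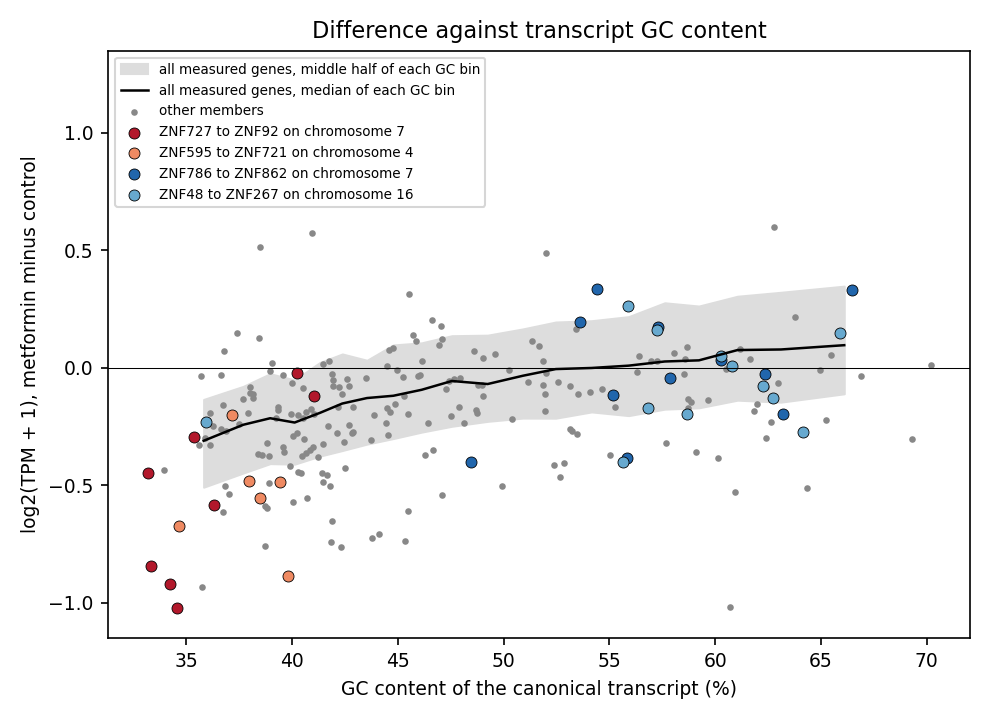
Metformin minus control difference in log2(TPM + 1) (y axis) against G and C content of the canonical transcript in percent (x axis) for the members, over the median (line) and the middle 50% (band) of all measured genes in bins of G and C content. The members follow the slope of the line, with the coloured clusters of chromosomes 7 and 4 that lie low at the left end and most points of the other 2 coloured clusters at the right.

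With the trend over G and C content and transcript length across all genes removed, the clusters drew together. The gap between the ZNF727 to ZNF92 and ZNF786 to ZNF862 medians was -0.49 before and -0.09 after. The ZNF727 to ZNF92 median was then -0.28 and that of ZNF786 to ZNF862 -0.19. The ZNF595 to ZNF721 median was -0.38, and its gap to ZNF786 to ZNF862 was -0.19. The removal moved 7 cluster medians toward 0 by over 1.5 times and 3 away from it: ZNF786 to ZNF862, ZNF48 to ZNF267 (from -0.10 to -0.22) and ZNF696 to ZNF707 on chromosome 8 (from -0.18 to -0.35). ZNF367 to ZNF782 remained lowest at -0.57, and the span from the lowest to the highest cluster median was 0.62 before and 0.51 after. The median of all measured genes with the trend removed was -0.098. ZNF397 to ZNF396 (-0.067), ZNF619 to ZNF621 (-0.065) and ZNF445 to ZNF35 (-0.059) then lay above it. The order of the clusters before and after had a Spearman correlation of 0.532 over the 19. The part of base composition in these differences was not tested.

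**Figure D5:**
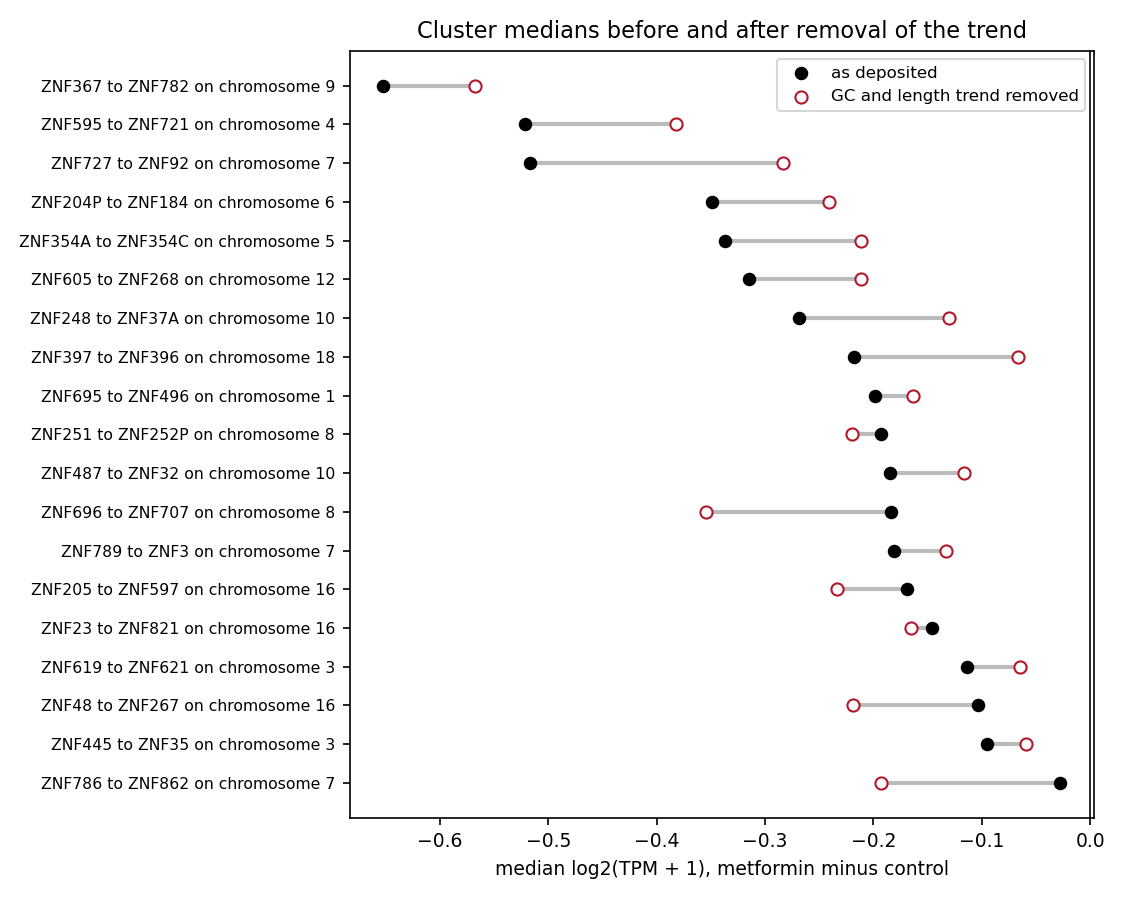
Median difference of log2(TPM + 1) of each cluster (x axis) as deposited (filled) and with the trend over G and C content and length removed (open), in the order of the deposited values. The ZNF727 to ZNF92 cluster goes from -0.52 to -0.28 and the ZNF786 to ZNF862 cluster from -0.03 to -0.19.

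Domain content was read from 216 coding sequences translated from GENCODE. These proteins had a median of 9 finger motifs and up to 36, in ZNF142, and 6 had none. KRAB letters were found in 69, with a median difference of -0.22, and were not found in 147, with a median of -0.13. Of the 69, 60 (87.0%) were below 0, against 76.9% of the 147 and 59.7% of all measured genes. The letters sought were strict, so proteins with a divergent KRAB domain are counted with the rest, and none of the 10 proteins of the ZNF786 to ZNF862 cluster matched. The KRAB group had the lower G and C content (median 41.9% against 47.1%), and with the trend removed the medians were -0.21 and -0.18. The 18 proteins with SCAN letters had a median of -0.17, with 11 (61.1%) below 0, close to the share of all measured genes. By number of fingers the medians were -0.09 for 25 proteins with 0 to 2, -0.18 for 97 with 3 to 9, -0.20 for 67 with 10 to 14 and -0.18 for 27 with 15 or more.

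None of the 10 most abundant members had KRAB letters, and 8 of them were scattered genes with varied known roles. ZNF207, a spindle assembly and kinetochore protein also known as BuGZ, was at 244 TPM in control and 172 TPM with metformin (ratio 0.705, 0.695 to 0.715). ZNF664 was at 145 and 117 TPM (ratio 0.806). The read-through model ZNF664-RFLNA, which shares its locus and strand and was left out, was at 68.5 and 5.69 TPM, and how reads were divided between them was not tested. ZNF384, a transcription factor rearranged in some leukaemias, was at 88.2 and 72.4 TPM (ratio 0.820, 0.783 to 0.860). ZNF655, the most abundant clustered member, was at 121 and 99.1 TPM. Near equality stood ZNF598, a ubiquitin ligase of ribosome quality control (59.9 and 59.5 TPM), ZNF217, an oncogene amplified in breast cancer (61.3 and 59.5 TPM), and ZNF410, an activator of CHD4 (60.1 and 63.7 TPM). ZNF706 was at 59.5 and 55.0 TPM. ZNF593, a factor of large ribosomal subunit assembly, was at 73.8 and 85.9 TPM (ratio 1.16, 1.04 to 1.30).

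Among the other scattered members the ends of the range were set by ZNF519 and ZNF385A. ZNF519, a KRAB protein on chromosome 18, was at 20.3 TPM in control and 10.1 TPM with metformin (ratio 0.499, 0.461 to 0.541). ZNF385A, a double-stranded RNA binding protein and partner of p53, was at 10.5 and 16.5 TPM (ratio 1.56, 1.36 to 1.8). ZNF33B, with KRAB letters, was at 12.5 and 18.2 TPM (ratio 1.46, 1.34 to 1.59), opposite to its paralog ZNF33A on the other side of the centromere of chromosome 10. ZNF532 was at 21.5 and 27.0 TPM (ratio 1.26, 1.18 to 1.34). Its partners in a chromatin reader complex, ZNF592 (12.4 and 11.4 TPM) and ZNF687 (17.5 and 13.4 TPM, ratio 0.767), were lower. ZNF641 (10.1 and 11.8 TPM, ratio 1.17) and ZNF608 (6.55 and 7.53 TPM, ratio 1.15) also had intervals above 1.

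Further scattered members, chosen for known roles after their values were seen, spread over the same range. ZNF292, a large transcription factor with 14 finger motifs, was at 23.6 and 15.1 TPM (ratio 0.640, 0.608 to 0.673). ZNF638, a nuclear protein that directs silencing of unintegrated retroviral DNA, was at 59.2 and 45.9 TPM (ratio 0.776, 0.744 to 0.809). ZNF148, which binds G-rich and C-rich promoters, was at 17.3 and 13.6 TPM (ratio 0.785), whereas its paralog ZNF281 was at 24.7 and 25.2 TPM. ZNF143, an activator bound at many promoters, was at 18.3 and 17.6 TPM, and its paralog ZNF76 at 44.4 and 40.3 TPM. ZNF622, which acts in maturation of the large ribosomal subunit as ZNF593 does, was at 53.3 and 50.4 TPM. ZNF451, a SUMO ligase, was at 20.1 and 21.2 TPM with an interval including 1. ZNF804A was the scattered member with the smallest plain ratio, 0.463 (0.353 to 0.605), at 2.98 and 1.38 TPM.

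Antisense and divergent RNAs and pseudogenes had medians nearer to 0, -0.07 over 9 and -0.11 over 9, than the protein-coding members (-0.18 over 220). Their order-statistic intervals, -0.29 to 0.03 and -0.38 to 0.29, both held the protein-coding median. Their median control TPM was also lower (3.80 and 5.61, against 11.8), where log2(TPM + 1) understates differences. ZNF232-AS1 was at 38.8 TPM in control and 18.7 TPM with metformin (ratio 0.481, 0.421 to 0.550), and ZNF232, which it overlaps on the opposite strand, at 16.4 and 11.3 TPM (ratio 0.688). ZNF337-AS1 was at 3.25 and 4.95 TPM (ratio 1.53, 1.13 to 2.08), while ZNF337 was at 11.1 and 10.7 TPM. No source used here states a strand setting for the counting, and without one the reads of such pairs cannot be told apart. The pseudogene ZNF658B was listed at 2 loci, with 1.90 and 0 TPM in control and 1.34 and 1.21 TPM with metformin. ZNF286A (17.6 and 12.1 TPM) and its duplicate ZNF286B (3.66 and 2.32 TPM) share 38.3% and 41.1% of their read-length windows with other listed genes, so reads could be exchanged between them.

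The ZNF genes of chromosome 19, the richest source of KRAB zinc finger genes, were further from 0 than the members. Over 254 measured genes there the median was -0.36, and 86.2% were below 0, against 59.7% of all measured genes. On chromosome 19, 59 (23.2%) were lower by 1.5-fold or more, against 18 (7.56%) of the members and 7.03% of all measured genes. With the trend removed the median was -0.28 on chromosome 19, -0.20 for clustered members and -0.15 for scattered members, against -0.098 over all measured genes. The genes named ZSCAN or ZKSCAN on the other autosomes (21 measured) had a median of -0.20 and those named ZBTB (36 measured) a median of -0.17, close to the members.

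The partners that KRAB proteins work through were described from a list of 32 genes of the TRIM28 pathway, all measured. Their median difference was -0.21. None was at 2-fold, where 1.24% of all measured genes were lower and 1.51% higher by that much, and CBX1 fell just short at 0.947. Of the 32, 24 (75%) were below 0, against 59.7% of all measured genes. TRIM28, the scaffold, was at 305 TPM in control and 261 TPM with metformin (ratio 0.854, 0.833 to 0.876), and SETDB1, the histone H3 lysine 9 methyltransferase it recruits, at 28.6 and 29.7 TPM with an interval including 1. The heterochromatin protein genes differed among themselves. CBX1 was at 101.2 and 196 TPM (ratio 1.94, 1.85 to 2.03), CBX3 at 185 and 131 TPM (ratio 0.708) and CBX5 at 80.8 and 85.7 TPM (ratio 1.06). UHRF1, which links histone marks to maintenance of DNA methylation, was at 97.3 and 55.9 TPM (ratio 0.575, 0.549 to 0.602), its partner DNMT1 at 196 and 153 TPM (ratio 0.779) and the remodeller SMARCAD1 at 46.7 and 28.7 TPM (ratio 0.615).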

How the data were processed

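RNA of H1299 cells was sequenced as 1 library without and 1 with 5 mM metformin. Libraries came from the TruSeq Stranded mRNA LT kit and Bowtie2 mapping went to hg19, per the labels' protocols. The submitters' processing notes name HISAT2 and Trimmomatic 0.38, with hg19 and GRCh37 as builds. The abundance program and any use of strand are not given in the sources used here. TPM and FPKM per gene were computed by the authors and deposited, with coverage (mean read depth) per gene beside them. Main values use TPM, rows of a gene ID summed.

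NCBI gene IDs were named from a RefSeq table (assembly GRCh38.p14, names only), which matched 27559 of 27685 IDs. Transcript length, G and C content and coding sequences came from GENCODE 44 on GRCh37. No RefSeq protein table was used, so finger motifs (C, 2 to 4 residues, C, 12 residues, H, 3 to 5 residues, H) and KRAB and SCAN letters were read from those translated sequences. Read pairs per gene were estimated from FPKM, length and depth (aligned bases from coverage over FPKM, 202 bases per pair). They gave exact Clopper-Pearson 95% intervals of ratios, for counting error only. The length was that of the GENCODE transcript, which can differ from the gene model behind the deposited FPKM. For ZNF891 it was 17294 bases, longer than the deposited span (chr12:133696555-133707059). Estimated pairs summed to 107% of each library, so some intervals are too narrow, and exact names the formula only. Differences are of log2(TPM + 1), which understates low genes. Python 3.11.15, pandas 2.3.3, numpy 2.4.6 and scipy 1.17.1 were used. The differences and cluster medians were also run on simulated counts with counting error only. That simulation left out the trend removal and the sequence scans and held no spread between cultures.

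Named genes were members past 2-fold, the 10 highest and 10 lowest differences at 5 TPM or more, the 10 most abundant, the highest and lowest protein-coding gene of each cluster, and the 3 nearest to each side of the minimum. Members of clusters and list genes could also be named. Members and lists were chosen with earlier results of these data known. Alternatives changed the pseudocount, the minimum, the unit, the scaling, overlaps, gene type, locus rows and the trend over G and C content and length.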

Additional observations from a re-analysis of the deposited data

How the results depend on the processing

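With 1 library per condition, nothing here measures variation between cultures. No paired analysis was possible because each group has 1 library. Of 15 alternatives, 12 kept the median of the members within the spread: it was -0.11 with a pseudocount of 5, -0.086 with centring on genes at 10 TPM or more and -0.10 with trimmed mean scaling. The share of members below 0 was 62.2% with centring and 64.3% with the trimmed mean, where all genes stood at 49.1% and 49.9%. These scalings also moved the share of higher among all genes past 2-fold from 54.9% to 70.3% and 66.8%. Members lower by 1.5-fold numbered 28 with a pseudocount of 0.1, 9 with 5 and 10 in FPKM. The FPKM setting held 225 members, and FPKM values are smaller than TPM here, so a pseudocount weighs more on them. Members higher by 1.5-fold numbered 3 with a pseudocount of 0.1, 0 with 5, 0 in FPKM and 2 with no minimum. The higher count was also 2 in coverage, 3 with centring, 3 with the trimmed mean, 2 with the trend over G and C content and length removed, and 0 without genes overlapping on either strand. Members lower by 2-fold numbered 3 with a pseudocount of 0.1 and 0 with 5, in FPKM, with centring, with the trimmed mean and without overlaps on either strand. That count was 1 with the trend removed, without same-strand overlaps and over protein-coding members. The ZNF367 to ZNF782 median was -0.41 with a pseudocount of 5. The ZNF397 to ZNF396 median was -0.13 with centring, -0.14 with the trimmed mean and -0.067 with the trend removed. Within the spread of their members, that removal also moved ZNF48 to ZNF267 from -0.10 to -0.22, ZNF696 to ZNF707 from -0.18 to -0.35 and ZNF248 to ZNF37A from -0.27 to -0.13, among 10 medians moved by over 1.5 times, 7 of them toward 0. Only ZNF786 to ZNF862 had a cluster median that changed sign, in 2 settings, up to 0.06 with centring. Of 62 named genes, 10 changed sign under some setting. The cause of these shifts was not tested. Depth limits genes near 1 TPM: of the members nearest the minimum, ZNF22-AS1, ZNF862 and ZNF815P all had counting intervals that included 1.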
